A study of Homo sapiens with 6 samples.

Results

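SPRR genes encode small proline-rich proteins of the cornified envelope, and the genes described here are those of 4 of them (SPRR1A, SPRR1B, SPRR2B and SPRR3) with 6 genes that work beside them in squamous epithelia (IVL, PI3, CSTA, CNFN, TGM1 and SLPI). They were picked by name, with the miR-10b decoy against control decoy contrast of these arrays already known, and each was read from probe sets that carry its symbol alone. These 10 genes, of 19775 with such a probe set, were covered by 13 probe sets, and the probe set with the highest mean over the 6 arrays stood for its gene. Because that contrast was known when they were picked, their levels and differences are given as a description, without a test.

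The first group was 3 arrays of U87-2M1 cells transduced with a baculoviral miR-10b decoy vector, a construct meant to bind the microRNA miR-10b. The other was 3 arrays of the same cells transduced with a baculoviral control decoy vector, so every sample carried a baculoviral vector. U87-2M1 is an invasive subline of the U87 human glioma line, obtained after an experimental lung metastasis assay in vivo and grown again in culture. All samples were passage 4 cells kept in hypoxia, and 0.25 µg of total RNA from each was made into biotinylated cRNA. It is one line, and nothing in the labels ties a replicate to a culture of its own, so p-values reflect only how far these samples lay apart, possibly for technical reasons. Binding of miR-10b by the decoy was not measured on these arrays.

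The cornified envelope is the protein shell that replaces the plasma membrane of keratinocytes in their last stage of differentiation. Involucrin forms a first scaffold under the membrane, transglutaminases crosslink it, and loricrin and the small proline-rich proteins are then joined onto it. SPRR, involucrin, loricrin and filaggrin genes lie together in a cluster on human chromosome 1, the epidermal differentiation complex, flanked by S100 genes. Several of these genes are also induced by stress and inflammation in epithelia, and none is a usual marker of glia or glioma.

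The DNA just upstream of the 5 members from the cluster is shown because SPRR and involucrin promoters are known in keratinocytes to be driven through AP-1 sites, and because these neighbouring genes include 3 with higher signals in decoy cells and 2 with overlapping groups. Each line is the 200 bases before the gene start, 5′ to 3′ on the gene's own strand, from RefSeq promoter windows of build GRCh38.p14. Capitals mark matches, on either strand, to the AP-1 motif TGANTCA, the TATA box TATAAA, the grainyhead motif ACCGGTT and the octamer ATGCAAA, and no matches overlapped.
SPRR2B, chr1:153071612-153071811, minus strand: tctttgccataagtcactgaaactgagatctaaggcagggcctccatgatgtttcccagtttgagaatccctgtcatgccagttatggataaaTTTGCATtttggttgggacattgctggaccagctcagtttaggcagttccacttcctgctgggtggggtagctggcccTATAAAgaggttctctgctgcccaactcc
SPRR3, chr1:153001549-153001748, plus strand: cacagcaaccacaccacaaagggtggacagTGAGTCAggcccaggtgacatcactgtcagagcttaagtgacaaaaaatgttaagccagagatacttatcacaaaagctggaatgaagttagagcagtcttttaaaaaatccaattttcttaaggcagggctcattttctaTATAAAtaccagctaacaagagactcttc
IVL, chr1:152908346-152908545, plus strand: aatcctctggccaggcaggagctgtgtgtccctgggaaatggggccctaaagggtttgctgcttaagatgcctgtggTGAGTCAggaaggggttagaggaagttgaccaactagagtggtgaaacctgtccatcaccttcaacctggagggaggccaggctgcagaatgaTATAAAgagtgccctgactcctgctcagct
SPRR1A, chr1:152983881-152984080, plus strand: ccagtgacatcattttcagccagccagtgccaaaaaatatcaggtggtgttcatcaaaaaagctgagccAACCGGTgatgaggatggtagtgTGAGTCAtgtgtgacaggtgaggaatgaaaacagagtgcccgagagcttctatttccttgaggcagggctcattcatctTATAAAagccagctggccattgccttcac
SPRR1B, chr1:153031003-153031202, plus strand: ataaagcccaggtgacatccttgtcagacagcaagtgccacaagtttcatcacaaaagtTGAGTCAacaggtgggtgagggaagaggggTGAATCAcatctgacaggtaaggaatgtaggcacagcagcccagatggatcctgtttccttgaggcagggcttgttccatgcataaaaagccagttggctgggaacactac
RefSeq windows matched 6 of the 10 genes, these and CNFN. In the 250 bases searched, 4 of the 6 held an AP-1 match (SPRR3, IVL, SPRR1A and SPRR1B, which held 2), against 6.57% of 35116 windows of the same length. The TATA box was matched in 4 (SPRR2B, SPRR3, IVL and SPRR1A), against 10.7% of all windows. SPRR2B held an octamer match, as 3.94% of windows did, and SPRR1A a grainyhead match, as 0.626% did. A match describes letters and does not show a used site.

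Signals are MAS5 intensities on a linear scale. Differences are in log2(signal + 3), decoy minus control, which understates changes of dim genes. They are given relative to the median of the 13842 genes tested, which was -0.14. Each limma p-value, and each call of a rise or fall, belongs to the unshifted difference, not to the relative one printed beside it. The trimmed mean signal was between 155 and 163 on the 3 decoy arrays and between 159 and 192 on the 3 control arrays, control replicate 3 being the brightest. A signal of 15.6, the level of the 30th percentile of gene means, is called the filter level, and genes with a mean under it were not tested. Of the cell markers, vimentin (VIM), fibronectin (FN1), CD44 and tenascin C (TNC) were bright on all arrays. SOX2 lay between 9.65 and 17.6 on decoy arrays and between 13.2 and 33.6 on control arrays (limma adjusted p = 0.286). S100B was under the filter level on every array. The astrocyte marker GFAP lay between 1.58 and 2.51 on decoy arrays and between 2.42 and 3.56 on control arrays, so this defining glial marker was under the filter level on every array. OLIG2, an oligodendrocyte lineage factor also found in gliomas, had 17.9, 18.9 and 26.8 in decoy cells, all above the filter level, and 0.822, 4.72 and 10.3 in control cells, all under it. Its mean was under the filter level, so it was tested only in the fit without the filter (relative log2 difference 1.85, limma adjusted p = 0.0353). NES and SPARC, other glioma markers, were lower in decoy cells. The means in decoy and control cells were 361 and 503 for NES (limma adjusted p = 0.00672) and 1592 and 2730 for SPARC (4.6e-07). For beta-actin, the ratio of 3′ to 5′ probe signals, which grows as RNA is degraded, was 8.54 ± 1.77 on decoy arrays and 5.73 ± 0.474 on control arrays (SD, n = 3 each, two-sided exact permutation p = 0.1, the lowest value that 3 against 3 can give). The same ratio for GAPDH was 0.943 ± 0.00747 on decoy arrays and 0.945 ± 0.0192 on control arrays. The part of RNA integrity in any difference below was not tested.

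The 10 genes did not move as one group. On 4 of them (SPRR2B, SPRR3, IVL and PI3) all decoy arrays lay above all control arrays, on 1 (CNFN) all lay below, and on 5 the arrays of the groups overlapped. Over all 19775 genes, 8.5% had every decoy array above and 23.5% every decoy array below, and over the 13842 genes past the filter the shares were 11% and 29.3%. Nothing is read from that count, since the genes were picked with this contrast known. The median relative difference of the 10 was 0.15, with 6 above 0 and 4 below. Only 8 had a mean signal past the filter level, SPRR1B and TGM1 being under it.

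**Figure D1:**
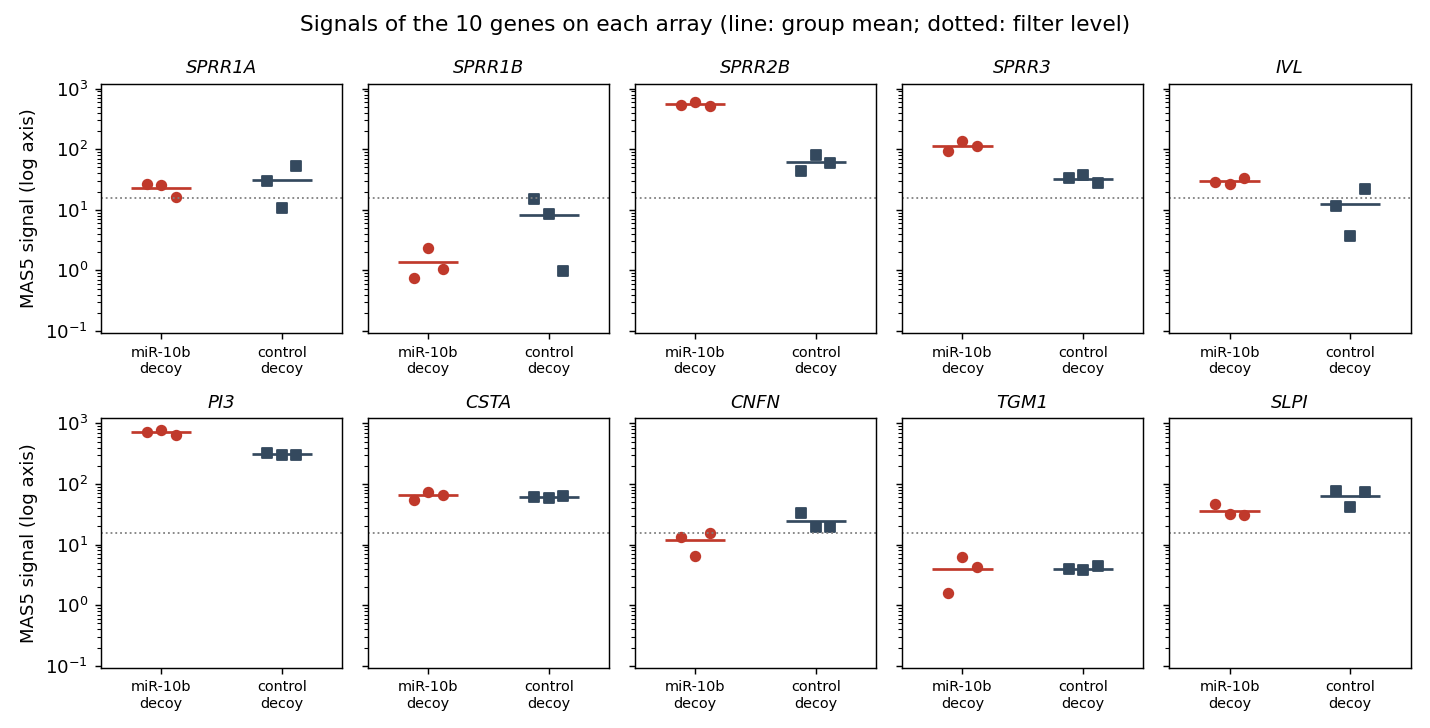
MAS5 signal (log axis) of each of the 10 genes on every array, with 3 miR-10b decoy arrays (red circles) left of 3 control decoy arrays (dark squares); short lines are group means and the dotted line is the filter level of 15.6. SPRR2B, SPRR3, IVL and PI3 have their decoy arrays above their control arrays, CNFN has them below, and SPRR1B and TGM1 lie under the filter level.

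SPRR2B, a small proline-rich crosslinking protein, showed the widest gap. Its probe set had 541, 602 and 510 on the decoy arrays and 42.9, 81.8 and 58.3 on the control arrays. The lowest decoy array was far above the highest control array. The means were 551 ± 46.7 in decoy cells and 61.0 ± 19.6 in control cells (SD, n = 3 each), a 9.03-fold ratio and a relative log2 difference of 3.30 (SE 0.16). Among the 13842 genes tested only 1 difference ranked above it. In bulk samples such as these, more cells with a transcript and more transcript per cell cannot be told apart. The probe set has the suffix (_x_at) that marks possible cross-hybridisation with similar transcripts, and the SPRR2 genes are near-identical copies, so the signal may come from more than SPRR2B.

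The other SPRR2 genes with a probe set of their own were dim. SPRR2C, a transcribed pseudogene, had 11.1, 8.20 and 9.49 in decoy cells and 11.1, 0.805 and 2.87 in control cells. SPRR2G had 8.34, 5.05 and 5.25 in decoy cells and 6.30, 2.74 and 6.13 in control cells. All these signals were under the filter level and the groups overlapped for both genes. SPRR2A, SPRR2D, SPRR2E and SPRR2F were not analysed here.

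SPRR3, a small proline-rich protein best known from the lining of the mouth and oesophagus, had signals of 95.2, 136 and 115 in decoy cells and 32.97, 36.9 and 27.3 in control cells. The groups did not overlap. Its means were 115 ± 20.2 in decoy cells and 32.4 ± 4.80 in control cells (SD, n = 3 each), a relative log2 difference of 1.88 (SE 0.23) that ranked 44 from the top. Its second probe set went otherwise, with 4.16, 23.5 and 12.9 in decoy cells and 24.1, 4.65 and 10.4 in control cells. That probe set lay near the filter level with overlapping groups and a relative log2 difference of 0.18 (SE 0.59, from a fit over every probe set), so the SPRR3 difference rests on 1 of 2 probe sets, itself one with the cross-hybridisation suffix. With the mean of both the difference was 1.03.

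SPRR1A and SPRR1B, the copies on either side of SPRR3 in the gene order, did not share its pattern. SPRR1A had 26.5, 25.8 and 16.2 in decoy cells and 30.1, 10.7 and 52.8 in control cells, from a probe set that also has the cross-hybridisation suffix. The decoy arrays lay inside the range of the control arrays, and the relative log2 difference of -0.07 (SE 0.41) took either sign under other settings, between -0.57 and 0.30. Its second probe set lay between 0.515 and 1.33 in decoy cells and between 0.417 and 0.76 in control cells, near the bottom of the scale. SPRR1B, whose protein is a marker of squamous differentiation in airway cells, had 0.761, 2.35 and 1.06 in decoy cells and 14.9, 8.68 and 0.991 in control cells. All 6 arrays were under the filter level, so no fold is given. SPRR4, a further member of the family, had 55.5, 77.2 and 80.5 in decoy cells and 73.8, 84.2 and 111 in control cells, with overlapping groups (adjusted p = 0.245 with limma).

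IVL, which encodes involucrin, the first scaffold protein of the envelope, had 28.7, 26.3 and 33.2 in decoy cells and 11.4, 3.68 and 22.4 in control cells. Each decoy array lay above each control array, but close to it at the nearest pair. Its means were 29.4 ± 3.48 in decoy cells and 12.5 ± 9.41 in control cells (SD, n = 3 each), and 2 of the 3 control arrays were under the filter level. The relative log2 difference was 1.41 (SE 0.49), with a range of 0.94 to 1.77 over the other settings.

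TGM1 encodes the membrane-bound transglutaminase that crosslinks envelope proteins in keratinocytes. It had 1.59, 6.14 and 4.27 in decoy cells and 3.94, 3.78 and 4.35 in control cells. Every array was well under the filter level, so no difference in TGM1 was detectable at these signals. CNFN, cornifelin, an envelope protein of the upper epidermis, had 13.3, 6.51 and 15.6 in decoy cells and 33.7, 19.6 and 19.7 in control cells. All decoy arrays were under the filter level and all control arrays above it, and against that level CNFN was at least 1.56-fold lower in decoy cells.

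PI3, elafin, is an elastase inhibitor that transglutaminase links into the envelope. It had 723, 786 and 652 in decoy cells and 330, 297 and 296 in control cells. Neither group came near the other. The means were 720 ± 66.9 in decoy cells and 308 ± 19.6 in control cells (SD, n = 3 each), a 2.34-fold ratio with a relative log2 difference of 1.36 (SE 0.14). The second PI3 probe set had 683, 712 and 487 in decoy cells and 282, 213 and 199 in control cells, a relative log2 difference of 1.57 (SE 0.16), so both probe sets had the same direction and nearly the same size. PI3 was the only one of the 3 members with several probe sets for which that held.

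SLPI, secretory leukocyte protease inhibitor, is built of the same kind of WAP domain as PI3 and lies on the same chromosome, 20. It had 45.9, 32.5 and 30.3 in decoy cells and 75.9, 42.2 and 74.0 in control cells. The highest decoy array exceeded the lowest control array, and the relative log2 difference was -0.60 (SE 0.26), opposite in sign to that of PI3. CSTA, cystatin A, an inhibitor of cysteine proteases in the envelope, had 54.1, 73.9 and 65.9 in decoy cells and 60.3, 58.0 and 63.4 in control cells. Those ranges overlapped fully, at a relative log2 difference of 0.22 (SE 0.22).

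**Figure D2:**
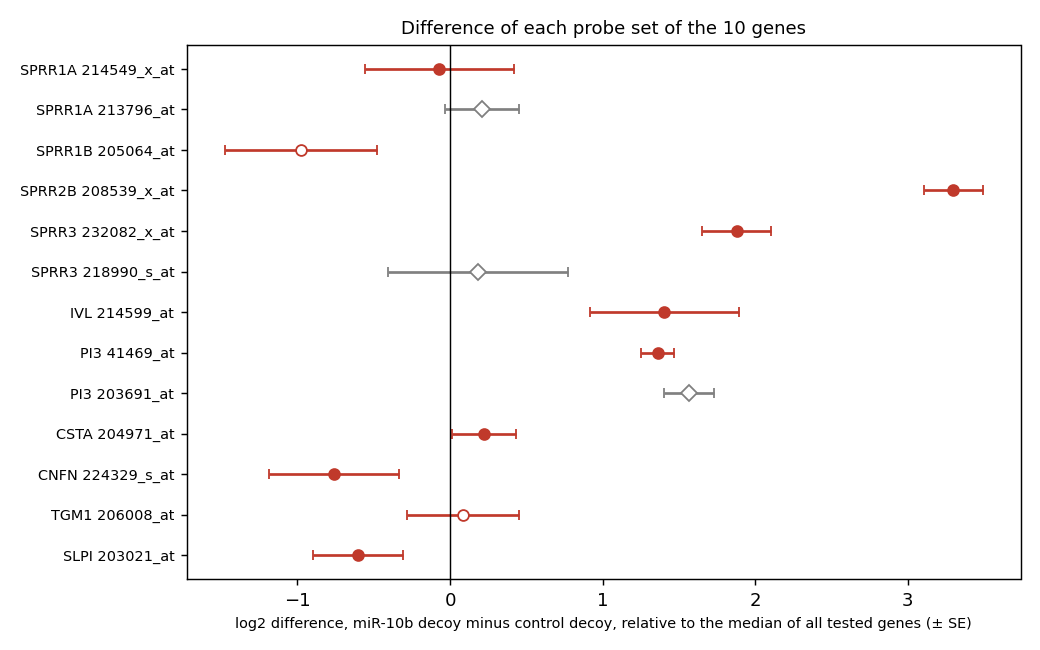
Log2 difference (miR-10b decoy minus control decoy, relative to the median of all tested genes) of each of the 13 probe sets, with bars for the SE from a fit over every probe set; filled red circles are the probe sets used, open red circles those used but under the filter level on all arrays, and grey diamonds the second probe sets. The PI3 probe sets lie together at 1.36 and 1.57, while those of SPRR3 lie apart at 1.88 and 0.18.

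None of the tested neighbours in the epidermal differentiation complex rose. Taken between S100A10 and S100A1 in the gene order of the RefSeq table, 38 neighbours of the 5 members had a probe set and 20 passed the filter. Of these 20, 4 fell, 0 rose and 16 did not pass the test (limma, Benjamini-Hochberg adjusted p under 0.05 over 13842 genes), and 0 were higher at an unadjusted p under 0.05. Over all genes tested, 7.84% were higher and 18.3% lower. Higher genes were 30.04% of those calls, 48.8% after quantile normalization and 66.01% after centring. The median relative difference of the 20 was 0.02, beside 0 by construction for all genes. After quantile normalization S100A2 (adjusted p = 0.00606) and S100A6 (adjusted p = 0.0494) were higher, S100A6 with the sign of its unshifted difference turned, and S100A2 was also after centring on the array median (adjusted p = 0.00115).

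The 4 that fell were mostly S100 genes, which encode small calcium-binding proteins. S100A4, linked to cell motility, had 1189, 1132 and 946 in decoy cells and 1797, 1936 and 2405 in control cells, with a relative log2 difference of -0.76 (SE 0.13, limma adjusted p = 1.23e-08). S100A16 and S100A3 fell by less, at -0.31 (unshifted -0.45, adjusted p = 0.00388) and -0.24 (unshifted -0.39, adjusted p = 0.0291). LCE1E, a late cornified envelope gene, had 42.0, 75.5 and 49.7 in decoy cells and 74.0, 93.0 and 115 in control cells, a relative difference of -0.60 (SE 0.21, adjusted p = 0.00537). The S100A3 call ended without control decoy replicate 2 (adjusted p = 0.0503), control decoy replicate 3 (0.0969) or miR-10b decoy replicate 3 (0.305), among 8 of 17 other settings. That of S100A16 ended under 3 of 17, among them without miR-10b decoy replicate 3 (0.0552), with adjusted p up to 0.119. The LCE1E call ended under 7 of 17 other settings, which were leaving out control decoy replicate 3 (0.0875) or miR-10b decoy replicate 1 (0.073), centring (0.0534), no filter (0.0899), averaged probe sets (0.072), no trend (0.0879) and no moderation (0.208). Leaving out control decoy replicate 3 gave 1 neighbour higher and 2 lower, and leaving out miR-10b decoy replicate 3 gave 2 lower. S100A6, the brightest neighbour, did not pass (adjusted p = 0.917).

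**Figure D3:**
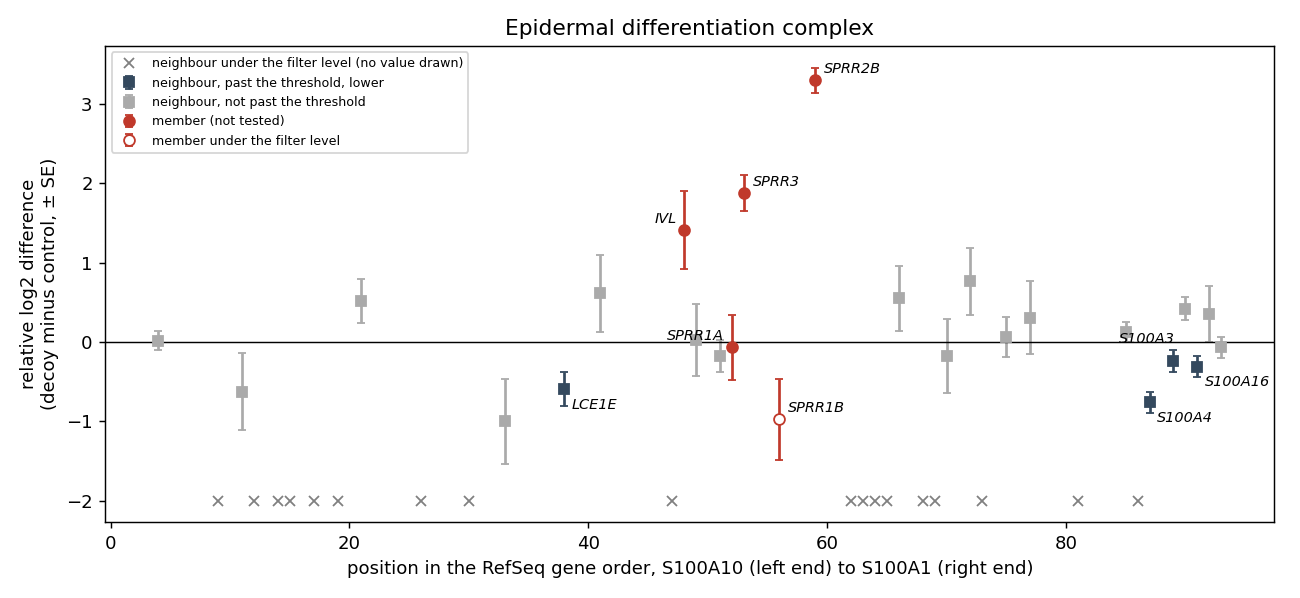
Relative log2 difference (± SE) of genes with a probe set in the epidermal differentiation complex, by position in the RefSeq gene order from S100A10 (left) to S100A1 (right); red circles are members, which were not tested (open where under the filter level), dark squares neighbours past the threshold, grey squares those not past it, and crosses neighbours under the filter level, drawn without a value. SPRR2B at 3.30, SPRR3 at 1.88 and IVL at 1.41 lie above the points of the neighbours drawn, while SPRR1A and SPRR1B between them do not. The bar of IVL (SE 0.49) overlaps that of S100A9 at 0.77 (SE 0.42), and SPRR2C, not drawn, had 1.03 (SE 0.49).

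Other envelope genes, wherever they lie, gave few calls. From a list of 57 further structural, crosslinking and lipid-envelope genes 35 had a probe set, and 21 of those were under the filter level, among them loricrin (LORICRIN) and filaggrin (FLG). FLG had 2.47, 6.46 and 0.260 in decoy cells and 6.94, 8.004 and 7.26 in control cells, and LORICRIN was dimmer still. Of the 14 tested, 1 rose, 2 fell and 11 did not pass, shares near those over all genes, and their median relative difference was near 0. Some of the 14 were already counted among the neighbours above, SPRR4 and LCE1E with its fall among them. The count that fell was 0 without control decoy replicate 3 or without miR-10b decoy replicate 1. This list, like the squamous, regulator and protease lists below, was chosen with earlier results of these data known.

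The gene that rose was TGM2, tissue transglutaminase, the widely expressed relative of TGM1. It had 1692, 1680 and 1587 in decoy cells and 835, 813 and 988 in control cells. Every decoy array was well above every control array, at a relative log2 difference of 1.06 (SE 0.13, limma adjusted p = 6.41e-09). Its call held under all 17 other settings, with adjusted p no higher than 0.0391. Besides LCE1E, the ceramide synthase CERS3 fell, at -0.73 (SE 0.31, adjusted p = 0.0243), and its call ended after quantile normalization (adjusted p = 0.0533), and without control decoy replicate 2 (0.0678), control decoy replicate 3 (0.0972) or miR-10b decoy replicate 1 (0.134), among other settings. ANXA1, annexin A1, the brightest of the list, had 9854 ± 51.5 in decoy cells and 9670 ± 1033 in control cells (SD, n = 3 each) and did not pass (adjusted p = 0.879), but did after quantile normalization (adjusted p = 0.00141).

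Genes that define squamous epithelial cells were mostly under the filter level in both groups. Of 24 keratin, desmosome and junction genes measured, 16 were under the filter level, 9 of them on all 6 arrays. The basal keratin KRT14 had 9.62, 2.39 and 4.74 in decoy cells and 0.681, 13.3 and 3.24 in control cells. E-cadherin (CDH1) had 2.00, 1.88 and 3.95 in decoy cells and 9.39, 1.99 and 6.94 in control cells. The desmosomal cadherin DSG3 had 3.63, 0.838 and 10.6 in decoy cells and 2.25, 4.10 and 27.8 in control cells. The basal keratin KRT5 had 5.23, 24.9 and 21.6 in decoy cells and 60.4, 8.36 and 60.3 in control cells, and did not pass (adjusted p = 0.0903). It passed, lower in decoy cells, without control decoy replicate 2 (adjusted p = 2.44e-04), and also when miR-10b decoy replicate 2 was left out (0.0395). TP63, the master regulator of squamous cells, was not analysed here.

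Of the 8 squamous genes tested, 4 fell and 0 rose with limma, and 0 were higher at an unadjusted p under 0.05, beside 7.84% higher and 18.3% lower over all genes. Their median relative difference was -0.52, and 2 fell when control decoy replicate 3 was left out. The filter bears on both the count and the median. KRT1 (-1.80) and DSC2 (-1.05) had all decoy arrays under the filter level and entered through control arrays. Left out under it were KRT16 and KRT13, with every decoy array above every control array, and KRT4, with every decoy array below. KRT10, a suprabasal keratin, had 2499 ± 51.7 in decoy cells and 3562 ± 130 in control cells (SD, n = 3 each), a relative difference of -0.37 (SE 0.12, adjusted p = 8.57e-04). PERP, a desmosome protein and p53 target, fell by 0.39 on the same scale (SE 0.13, adjusted p = 5.42e-04). With the mean of all their probe sets both calls ended (KRT10 adjusted p = 0.115, PERP adjusted p = 0.199), and that of PERP also ended without moderation (0.0602). KRT1, the partner of KRT10, had 1.94, 14.2 and 3.39 in decoy cells, all under the filter level, and 37.3, 17.4 and 34.6 in control cells, so it was at least 1.91-fold lower in decoy cells (adjusted p = 0.0102), a call that ended without control decoy replicate 1 (0.085) or 3 (0.073). KRT1 passed the filter through its control arrays alone, and without the filter its adjusted p was 0.0253. KRT15, a basal keratin, had overlapping groups and a call (adjusted p = 0.0427) that ended under 11 of 16 other settings, among them without control decoy replicate 1 (0.163) or 3 (0.127) and without miR-10b decoy replicate 1 (0.387) or 3 (0.0696). After quantile normalization or centring the tight junction gene CLDN1 was higher (adjusted p = 0.0288 and 0.0259). The summed signal of the 24 genes was 4437 to 4698 on decoy arrays and 6232 to 7168 on control arrays, set mostly by KRT10 and PERP, and the part of any squamous cells in the members' signals was not tested.

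KRT16, a keratin induced with SPRR genes in stressed epidermis, was chosen for mention after its values were seen. It had 16.3, 12.2 and 12.1 in decoy cells and 1.23, 1.07 and 2.79 in control cells. The groups did not overlap, but only 1 array exceeded the filter level, so the gene was tested only in the fit without the filter (adjusted p = 0.00836), where the squamous list gave 1 higher, KRT16, and 3 lower.

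Several transcription factors and receptors that act on epithelial differentiation rose. Of 25 tested, 9 rose, 3 fell and 13 did not pass, which is 36% higher and 12% lower against 7.84% and 18.3% over all genes. Nothing is read from these shares, since this list was chosen with earlier results of these data known. Their median relative difference was 0.31. The counts moved to 13 higher and 3 lower after quantile normalization, 15 and 3 after centring, and 3 higher and 0 lower without variance moderation.

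EHF and ELF3 are epithelial ETS factors, and ELF3 is known to act on the SPRR2A promoter in keratinocytes. EHF had 278, 288 and 250 in decoy cells and 92.4, 106 and 127 in control cells, with a relative log2 difference of 1.46 (SE 0.16, adjusted p = 1.24e-11). ELF3 had 59.9, 70.7 and 46.8 in decoy cells and 20.4, 12.4 and 29.7 in control cells, at 1.57 (SE 0.32, adjusted p = 2.43e-04). In both genes every decoy array was above every control array. With the mean of all their probe sets both calls ended (EHF adjusted p = 0.303, ELF3 adjusted p = 0.0619), and that of ELF3 also ended without moderation (adjusted p = 0.105).

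PRDM1, BLIMP1, a repressor needed for the last steps of keratinocyte differentiation in mice, had 1176, 1125 and 1429 in decoy cells and 443, 497 and 529 in control cells. Its relative difference was 1.48 (SE 0.13, adjusted p = 2.79e-15). HES1, a Notch target gene, had 819, 913 and 967 in decoy cells and 348, 296 and 325 in control cells, at 1.61 (SE 0.14, adjusted p = 3.58e-17). The groups were wide apart for both, and both calls held under all 17 other settings. GATA3 (0.94, adjusted p = 0.0104), the vitamin D receptor VDR (0.84, 4.56e-04) and the Notch receptor NOTCH1 (0.68, 0.0087) also rose. So did the retinoid receptor RXRA (0.68, 0.00383) and KLF5 (0.52, 0.0409), with overlapping groups for KLF5. Without moderation all these calls ended, and with the mean of all probe sets only that of KLF5 held (0.00585). Without the filter only those of VDR (0.0304) and NOTCH1 (0.0485) held.

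The 3 that fell were JAG1, HOPX and OVOL1. JAG1, a Notch ligand, had 899 ± 99.99 in decoy cells and 1592 ± 432 in control cells (SD, n = 3 each), a relative difference of -0.65 (SE 0.13, adjusted p = 1.17e-06). HOPX, a homeodomain protein of the upper epidermis, fell by 0.76 (SE 0.19, adjusted p = 9.47e-05), a call that ended with the mean of its probe sets (adjusted p = 0.714). OVOL1, a zinc finger factor, fell by 0.83 (SE 0.29, adjusted p = 0.00658), with groups that just overlapped. Its call ended under 4 of 16 other settings, with adjusted p up to 0.216. Among these were leaving out control replicate 3 (adjusted p = 0.12), no filter and no moderation. KLF4, which in mice is needed for the skin barrier, had 463 ± 79.0 in decoy cells and 397 ± 67.4 in control cells (SD, n = 3 each) and did not pass (adjusted p = 0.26). CEBPB, the brightest of the list, did not pass either (adjusted p = 0.626), but did upward after quantile normalization (adjusted p = 4.44e-04).

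**Figure D4:**
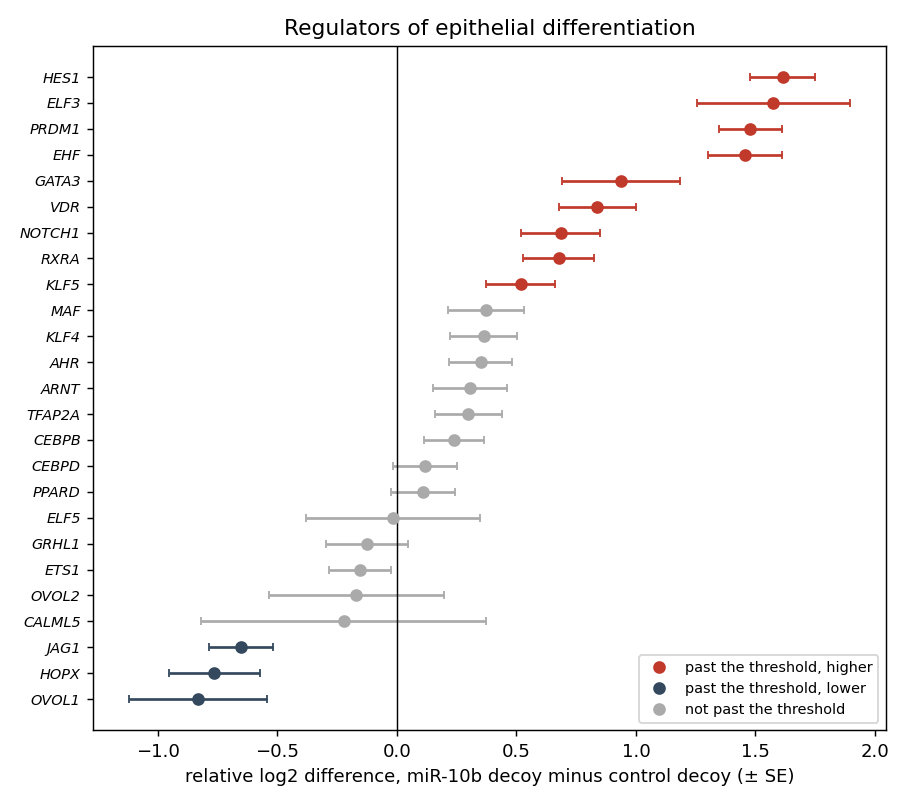
Relative log2 difference (± SE, miR-10b decoy minus control decoy) of the 25 tested regulators of epithelial differentiation; red points passed the threshold higher, dark points lower, and grey points did not pass. HES1 at 1.61, ELF3 at 1.57, PRDM1 at 1.48 and EHF at 1.46 form the upper end, and OVOL1 at -0.83 the lower.

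PI3, SLPI and CSTA block proteases, and other inhibitors and the proteases of these classes were listed beside them. Of 25 tested, 1 rose, 6 fell and 18 did not pass, with a median relative difference of -0.24. That is 4% higher and 24% lower, beside 7.84% and 18.3% over all genes. The one that rose was SPINK1, a Kazal-type trypsin inhibitor, with 448, 479 and 491 in decoy cells and 102, 92.0 and 130 in control cells. Its decoy arrays were far above its control arrays, at a relative log2 difference of 2.26 (SE 0.15, limma adjusted p = 8.81e-25), and the call held under all 17 other settings.

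Of the 6 that fell, 4 were cathepsins, lysosomal proteases of which cystatins restrain the cysteine type. CTSV, known in human epidermis, had 99.4, 102 and 99.5 in decoy cells and 174, 156 and 167 in control cells, at -0.56 (SE 0.17, adjusted p = 5.07e-04). CTSD fell by 0.46 (SE 0.14, adjusted p = 2.97e-04), CTSC by 0.29 (adjusted p = 0.0133) and the Kunitz inhibitor SPINT1 by 0.57 (adjusted p = 0.013), and CTSB and cystatin C (CST3) also fell. The CTSC call ended under 5 of 17 other settings, among them without miR-10b decoy replicate 1 (0.0571) or 3 (0.103). That of SPINT1, whose groups overlapped, ended under 8 of 16, with adjusted p up to 0.501. Among these were leaving out control decoy replicate 3 (0.136) or miR-10b decoy replicate 1 (0.265), quantile normalization, centring, no filter and averaged probe sets. The list gave 3 higher and 4 lower when control decoy replicate 3 was left out. Leaving out miR-10b decoy replicate 3 gave 3 lower. Neutrophil elastase (ELANE), the protease that elafin and SLPI inhibit, was under the filter level, and the WAP genes WFDC2, WFDC3 and WFDC12 did not pass. Cystatin B (CSTB), the brightest of the list, had 8820 ± 334 in decoy cells and 8092 ± 1048 in control cells (SD, n = 3 each) and did not pass (adjusted p = 0.473). It passed upward after quantile normalization (adjusted p = 2.77e-04), where CTSL was also higher, with 3 higher and 5 lower in all.

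The mean log2 signal of the 8 members past the filter was 6.32, 6.30 and 6.26 in decoy cells and 5.68, 5.30 and 5.80 in control cells. Among other genes tested, the 6 whose log2 signals over the 6 arrays had the highest Pearson correlation with that mean were DTX2, PPP1R12C, QTRT1, ADCY8, KAT8 and TIMM8A, with r between 0.995 and 0.9997 across arrays that differ between the groups. As the best of 13842 genes on 6 points, such values are a description only. Of these 6, DTX2, a Notch pathway ubiquitin ligase, had 67.1 ± 1.65 in decoy cells and 40.8 ± 7.86 in control cells (SD, n = 3 each). No test is given for these genes, since their likeness to a profile that is higher in decoy cells fixes their direction. Nothing is read from the height of that profile, since the members were picked with this contrast known. Among the 8 averaged, IVL had a control mean under the filter level and CNFN a decoy mean under it.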

How the data were processed

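Biotinylated cRNA from 3 miR-10b decoy and 3 control decoy samples was hybridised to Affymetrix arrays, per the labels' protocols. The deposited values are linear signal intensities for 54675 probe sets, made by the authors with MAS5, per the submitters' processing notes. For its version and scaling target, the value is not given in the sources used here. The platform annotation gave 41097 probe sets 1 symbol, 1801 several and 11777 none. Only the first kind was used, without array controls (41091), and 0 symbols needed an update from RefSeq (GRCh38.p14).

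The scale for tests was log2(signal + 3), where 3 is 0.1 of the median over all values, and no further normalization was applied. The 13842 of 19775 genes with a mean past the 30th percentile were tested with limma 3.58.1 (R 4.3.3; lmFit, eBayes with intensity trend, two-sided, Benjamini-Hochberg over all 13842, threshold 0.05). eBayes gave 122 prior against 4 residual degrees of freedom, so the smallest p-values lean on a variance pooled over genes. The fit was also run on simulated data with independent noise and no shift between arrays, which cannot show how scaling moves the calls. Group and replicate came from sample titles. Same-numbered arrays did not deviate together (r from -0.03 to 0.02), so they were not paired.

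The members and all lists were chosen with earlier results of these data known. Genes were named by a rule: every member and SPRR gene, up to 4 calls in each direction and the brightest gene of each list, 7 fixed genes, and the 6 with the most similar profile. GATA3, VDR, NOTCH1, RXRA, KLF5, KLF4, CTSB, CST3, CTSL, CLDN1, KRT4, KRT13, KRT16, DSC2, OLIG2, S100A2, ELANE, the WFDC genes and the glioma markers were named outside it, after their values were seen. Over all genes tested, 7.84% were higher and 18.3% lower. Of the immune markers (5 measured, 3 under the filter level), 2 were tested with limma, and 0 were higher and 1, HLA-DRA, lower. At an unadjusted p under 0.05, 0 were higher. The glial and glioma list gave 0 higher (also 0 at an unadjusted p under 0.05) and 2 lower (NES and SPARC) of 7 tested, beside those shares. OLIG2, from the same list and under the filter level by its mean, was higher in the fit without the filter. Alternatives were quantile normalization, centring, offsets of 1, 12 and 7 (the last added after seeing the data), no filter or one at the 50th percentile, averaging a gene's probe sets, no trend, no moderation, the replicate number as a block, and each array left out. The number of arrays limits the precision.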

Additional observations from a re-analysis of the deposited data

How the results depend on the processing

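The split of calls over all genes rested on scaling. Against 1085 higher and 2527 lower (30.04% of calls higher), quantile normalization gave 2285 and 2395 (48.8%), and centring gave 3100 and 1596 (66.01%). They were 529 and 1419 with the mean of all probe sets, 584 and 1167 without the trend, and 200 and 314 without moderation. Leaving out 1 array gave 733 to 1894 higher, the most without control decoy replicate 3, and 1480 to 2579 lower, the fewest without miR-10b decoy replicate 3 (1667 without miR-10b decoy replicate 1).

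SPRR2B, SPRR3, IVL, PI3 and CSTA kept a positive relative difference under all 15 alternatives run on their values. CNFN, SLPI and SPRR1B kept a negative one, whereas SPRR1A and TGM1 took both signs. The groups of CSTA, SLPI and SPRR1B overlapped all the same. Centring and the replicate block could not change these relative differences, and the other filters moved all members by the same amount. The members were picked with this contrast known, so a kept sign is a description only. The ranges were 3.11 to 3.57 for SPRR2B, 1.03 to 2.01 for SPRR3, 1.24 to 1.47 for PI3 and 0.15 to 0.33 for CSTA. The members' median stayed between 0.02 and 0.34 with an array left out.

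Other envelope genes had 1 higher and 2 lower, 2 and 1 after quantile normalization, 2 and 0 after centring, and 1 higher throughout the rest. The lower count was 0 with the mean of all probe sets, without a filter or without moderation, 1 with the 50th percentile filter, and 0 to 3 with an array left out. Squamous genes had 0 higher, 1 after quantile normalization or centring (CLDN1) and 1 with no filter (KRT16). Their lower count of 4 became 2 with the 50th percentile filter, 1 without moderation or with the mean of all probe sets, and 2 to 5 with an array left out. Regulators had 9 higher, 15 after centring, 3 without moderation or with the mean of all probe sets, 5 without the trend and 6 to 11 with an array left out, and 3 lower, 0 without moderation. The protease list had 1 higher, 3 after quantile normalization, 4 after centring and 1 to 3 with an array left out. Its lower count of 6 was 3 with no filter, 2 without the trend, 1 without moderation and 3 to 5 with an array left out. Neighbours had 0 higher, 2 after quantile normalization, 1 after centring and 0 to 1 with an array left out. Their lower count of 4 was 2 after centring and without a filter, without the trend or with the mean of all probe sets, 0 without moderation and 2 to 5 with an array left out. The unshifted log2 difference of S100A6, -0.02, reversed to 0.13 after quantile normalization. The cause of these shifts was not tested.

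With the replicate number as a block, which the labels do not tie to a shared day or culture, 970 genes were higher and 2179 lower, and the block ended the call of KRT15 (adjusted p = 0.0542) and no other among the list genes named by the rule. Dim signals limit IVL, CNFN, SPRR1B and TGM1 most, since the arrays carry no detection call here.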
